A study of Mus musculus with 16 samples.

Results

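Oligodendrocyte precursor nuclei (OPC) were picked out of single-nucleus RNA-seq of the mouse hippocampus by a marker rule. A barcode counted as a precursor if it had 200 to 4000 genes, at most 5% mitochondrial UMIs (unique molecular identifiers, 1 per captured RNA molecule), at least 1 UMI of *Pdgfra* and UMIs of at least 3 of the 6 genes *Lhfpl3*, *Vcan*, *Cacng4*, *Shc4*, *Matn4* and *Stk32a*. It also had to hold no UMI of *Mog*, *Csf1r*, *Gad2* or *Col3a1*, which mark mature oligodendrocytes, microglia, inhibitory neurons and fibroblasts. Of 118205 nuclei within the gene and mitochondrial limits (155084 barcodes in all), 2912 met the rule. The 16 libraries came from 16 male mice, 8 wild-type (WT, C57BL/6) and 8 *Ifnar1*-/- (KO), which lack a subunit of the type I interferon receptor in every cell. In each genotype 4 mice were injected intraperitoneally with vehicle and 4 with DMXAA, an agonist of mouse STING, repeatedly, and were perfused a day after the last injection. WT mice were 2 months 23 days old and KO mice 3 months 3 days, so genotype and age cannot be told apart. The same holds for any other difference between the WT and KO mice as cohorts.

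OPC are the dividing glia of the adult brain that give rise to myelinating oligodendrocytes. PDGF receptor alpha carries their main growth signal, they bear the proteoglycan NG2 (*Cspg4*) and they receive synaptic input from neurons. STING is an adaptor that is switched on downstream of cytosolic DNA, and it drives production of type I interferon. Interferon then binds IFNAR1 and IFNAR2 on any cell, the kinases JAK1 and TYK2 are switched on, and the factor ISGF3, which holds STAT2 and IRF9, binds interferon-stimulated response elements (ISRE) in the promoters of IFN-stimulated genes (ISGs).

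The members carried the transcripts of precursors, not of mature oligodendrocytes. *Pdgfra* averaged 791 CPM (UMI counts scaled to a common library total) in OPC and 6.1 CPM in all other kept nuclei, as the rule required, and *Lhfpl3* averaged 7814 against 139 CPM. Among genes that the rule did not use, the NG2 gene *Cspg4* was at 352 CPM in OPC and 3.93 CPM elsewhere. The sialidase *Neu4* was at 134 against 1.33 CPM, the secreted protein *C1ql1* at 113 against 1.38 CPM and *Susd5* at 116 against 1.14 CPM. These levels describe the members and were not tested, since the same nuclei were chosen by their transcripts. The lineage factors *Sox10* (270 CPM) and *Olig2* (80.9 CPM) were present, and 32.0% of members held *Gpr17*, which is transient in precursors about to differentiate. *Enpp6*, a mark of newly formed oligodendrocytes, was found in 0.618% of members. The myelin gene *Mag* averaged 10.7 CPM, against 853 CPM in mature oligodendrocytes.

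**Figure D1:**
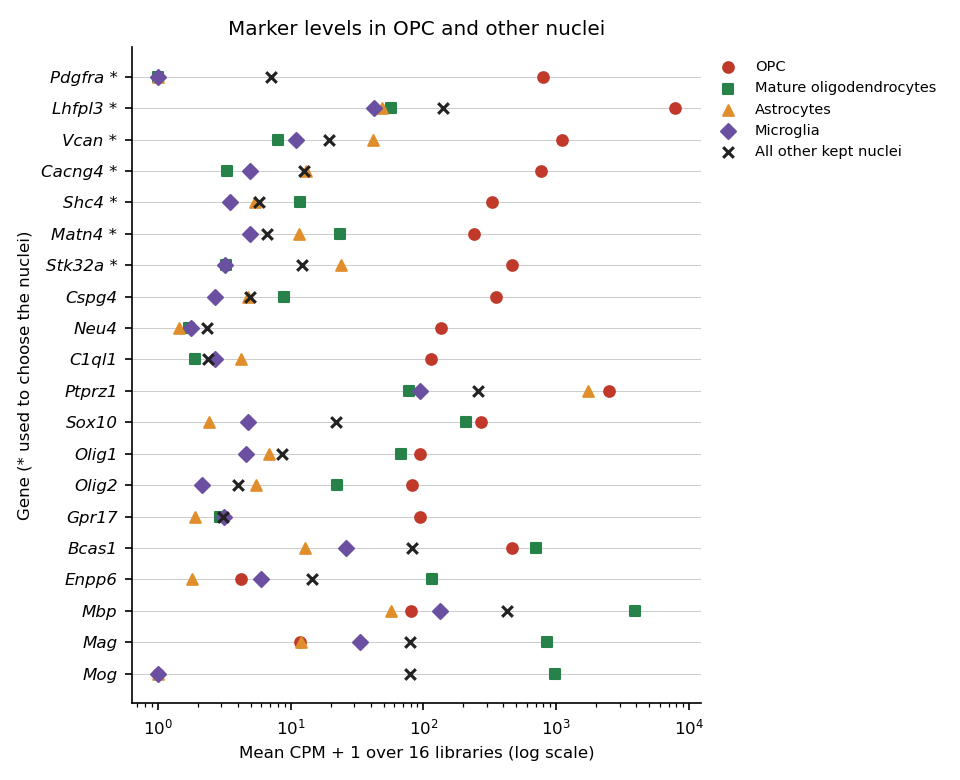
Mean CPM + 1 over 16 libraries (log axis) of precursor, commitment and myelin genes in OPC, mature oligodendrocytes, astrocytes, microglia and all other kept nuclei, with the rule's genes starred. *Cspg4*, *Neu4* and *C1ql1*, which the rule did not use, lie at 352, 134 and 113 CPM in OPC and below 10 CPM elsewhere.

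Exactly 3 of the 6 genes were found in 214 members, 4 in 621, 5 in 1153 and all 6 in 924. Just outside were 83 nuclei with *Pdgfra* and exactly 2 of the 6, at a median of 3860 UMIs, against 3207 UMIs for the members with exactly 3. Another 475 nuclei had *Pdgfra* and 1 of the 6, and 1100 had *Pdgfra* and 0 of the 6. A further 712 nuclei had 3 or more of the 6 genes but no *Pdgfra* UMI, 239 met the markers but held an excluded gene, and 191 had over 4000 genes.

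Promoter sequences of the responding genes are shown because ISGF3 is known to act through a short element of DNA. RefSeq promoters on GRCm38.p6, from 250 bases before to 50 after the start site, were searched on both strands for GAAANNGAAA, an ISRE core (TTTCNNTTTC on the other strand). Of 22 genes that rose with DMXAA in WT OPC (below), 17 had a promoter in the table and 7 of these held the letters. All 7 are printed 5′ to 3′ on the gene's strand, with the match in capitals.
Ddx60, chr8:61928024-61928086, plus strand: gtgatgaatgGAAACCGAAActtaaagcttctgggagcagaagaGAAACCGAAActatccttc
Ifit1, chr19:34640775-34640823, plus strand: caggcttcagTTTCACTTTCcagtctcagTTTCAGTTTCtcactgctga
Ifih1, chr2:62646206-62646233, minus strand: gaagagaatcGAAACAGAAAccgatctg
Eif2ak2, chr17:78882535-78882564, minus strand: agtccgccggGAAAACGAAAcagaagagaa
Ddx58, chr4:40239804-40239833, minus strand: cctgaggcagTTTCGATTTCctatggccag
Stat2, chr10:128270266-128270295, plus strand: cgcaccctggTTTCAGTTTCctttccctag
Parp11, chr6:127446786-127446815, plus strand: ttccttttagTTTCGATTTCttggaacccg
*Ddx60* held 2 matches, starting at -53 and -19 from its start site, and *Ifit1* held 2 on the reverse strand, at -104 and -85. The same letters were in 1131 of all 32851 promoters (3.44%) and in 248 of 7228 tested genes with a promoter (3.43%). A match describes the letters only and shows no binding. The promoters of *C4b*, *Parp9*, *Gm44148* and *Rtp4* were not used here.

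The libraries held 66059561 to 93228638 UMIs, of which 685937 to 1156187 were in OPC. OPC numbered 140 to 242 per library, with a median of 3615 to 5347 UMIs and 1822 to 2195 genes per nucleus. No OPC barcode was shared between libraries in any of 120 pairs. WT DMXAA 3 stood apart from the other WT libraries. It had the lowest share of OPC (1.46% of kept nuclei, against 2.54 to 2.56% in the other WT DMXAA libraries) and 99 nuclei with the other markers but no *Pdgfra* UMI, against 23 to 52 elsewhere. In the genes that differed between vehicle-treated genotypes it lay with the KO libraries (below), so the main results are also given without it. The 12 microglial markers summed to 123 to 144 CPM in WT vehicle, 72.9 to 192 CPM in WT DMXAA, 74.4 to 92.2 CPM in KO vehicle and 90.1 to 122 CPM in KO DMXAA, 1.18% of their sum in microglia. The 9 markers of mature oligodendrocytes stood at 0.915% and the 10 astrocyte markers at 6.32% of their level in those cells. The 9 markers of excitatory neurons summed to 415 to 1125 CPM, and the 9 of inhibitory neurons to 2748 to 3681 CPM, a mean of 3263 CPM of which *Erbb4* made 3189. The 7 choroid plexus markers, a list added after the data were seen, summed to 591 to 2920 CPM, a mean of 995 CPM of which *Trpm3* made 572.

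*Ifnar1* (chromosome 16, 91485238 to 91507441, plus strand, mm10) is the deleted gene. From here on CPM are over library sums scaled by TMM (the trimmed mean of M values), with libraries in the order of replicates 1 to 4. *Ifnar1* stood at 19.2, 15.7, 15 and 24.5 CPM in WT vehicle and at 18.8, 20.3, 12.8 and 17.5 CPM in WT DMXAA. KO vehicle libraries had 15.4, 4.72, 19.4 and 16.1 CPM, and KO DMXAA libraries 13.9, 16.7, 17.1 and 19.6 CPM. The genotypes overlapped, with a log2 fold change of -0.37 in KO vehicle against WT vehicle (adjusted p = 0.388). The reads are 3′ tags, which count transcripts whether or not they encode a receptor, so *Ifnar1* does not check the genotype here.

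The share of OPC among kept nuclei did not pass a test between groups. It was 2.45% ± 0.323 (SD, n = 4) in WT vehicle and 2.28% ± 0.544 in WT DMXAA, and 2.43% ± 0.174 in KO vehicle and 2.80% ± 0.380 in KO DMXAA. The two-sided exact permutation test on the difference of means gave p = 0.743 for DMXAA in WT, 0.171 in KO and 0.971 between vehicle groups (adjusted 0.971, 0.514 and 0.971), where 0.0286 was the smallest possible. The rule needs detected markers, so the share moves with depth. UMIs per OPC nucleus (library medians) were 3987 ± 185 in WT vehicle and 4679 ± 335 in KO vehicle, without overlap between the groups (exact permutation p = 0.0286, adjusted 0.0857), and 3989 ± 319 and 4592 ± 528 in the WT and KO DMXAA groups.

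DMXAA raised ISGs in WT OPC. Of 9338 genes tested on library sums, 22 (0.236%) were called and all were higher with DMXAA. A call needed a Benjamini-Hochberg adjusted p below 0.05 together with a log2 fold change beyond 0.1 in either direction. Of the 145 listed ISGs, 31 passed the filter on low counts and 16 of these were called, all higher. The median log2 fold change of the 31 was 1.51 and 28 were positive, whereas the median of all genes tested was 0.01. A gene could pass the filter through the WT DMXAA group alone. At least *Oasl2*, *Ifit1*, *Ifih1* and *Ddx60* did so. They had 4, 5, 3 and 19 UMIs in WT vehicle and 173, 154, 58 and 565 in WT DMXAA. Outside the ISG list *C4b* and *Gm20559* did so too, with 10 UMIs each in WT vehicle and 104 and 120 in WT DMXAA. The median and the number positive are therefore partly set by the filter and are given as description only. Among all genes tested, 125 (1.34%) had their 4 WT DMXAA libraries all above the 4 WT vehicle libraries. Of the 22 called, 20 did. At an unadjusted p under 0.05 there were 509 genes, and DESeq2 called 23 and limma 13. The count fell to 13, 12 and 13 without WT vehicle 1, 2 and 3 and rose to 70 (58 higher and 12 lower) without WT DMXAA 3.

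**Figure D2:**
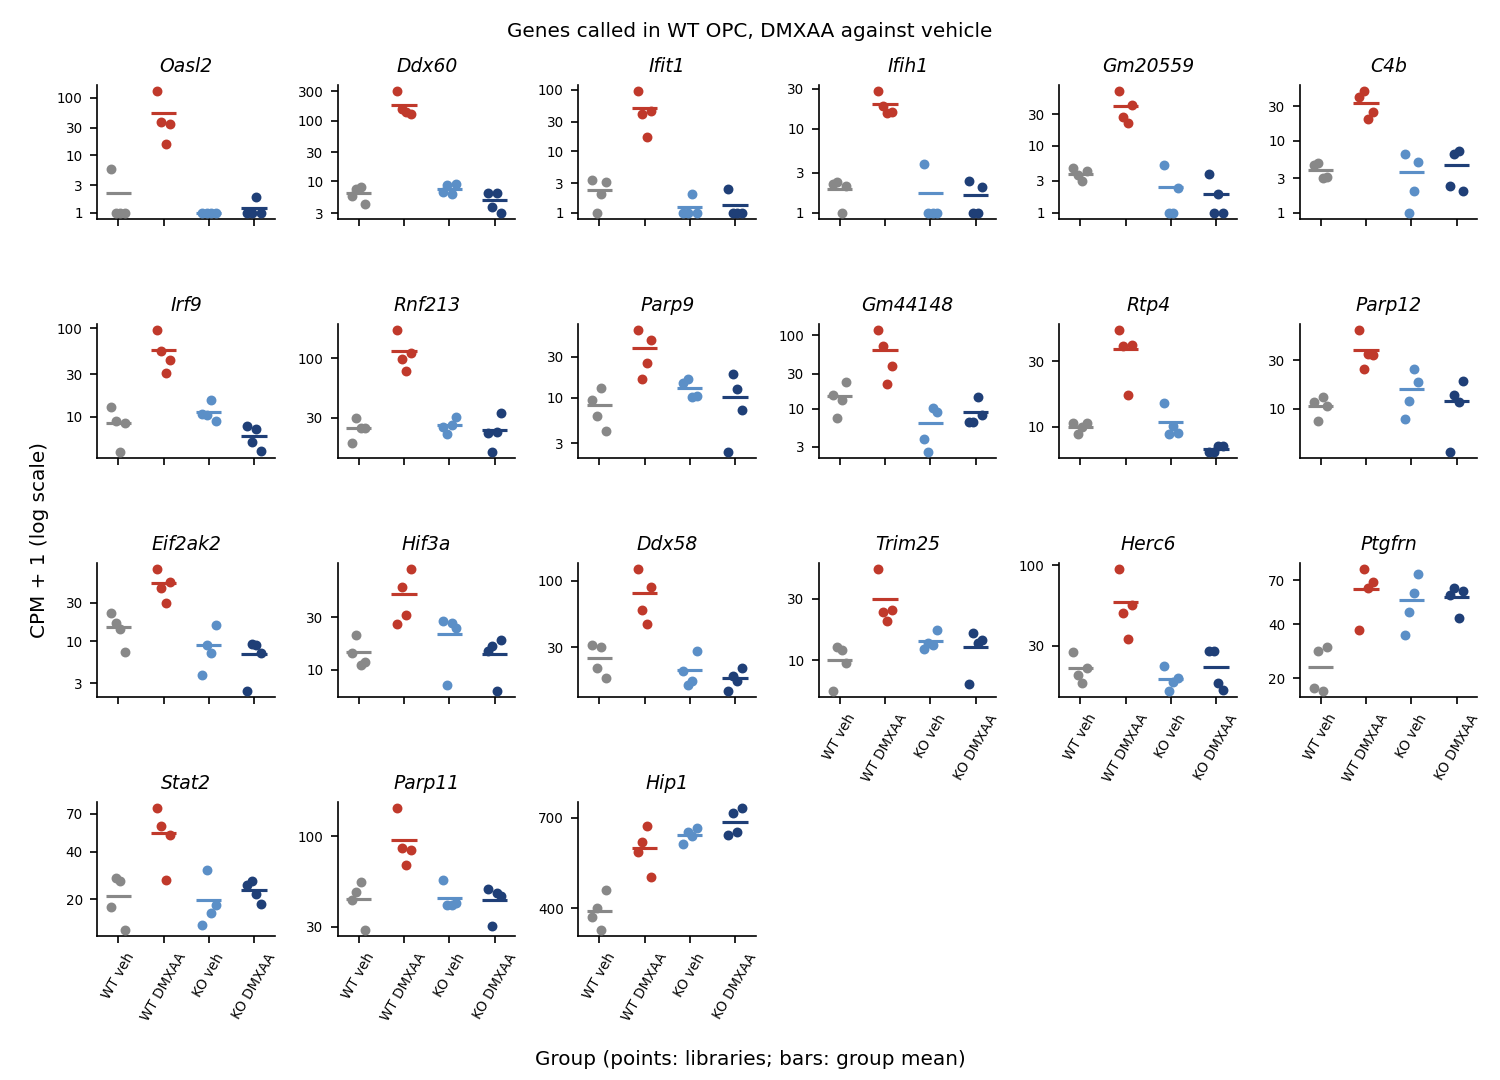
CPM + 1 (log axis) in each library for the genes called in WT that are reported here, with a bar at each group mean. WT DMXAA libraries lie above WT vehicle in every panel but those of *Gm44148* and *Stat2*, and WT DMXAA 1 is often the highest; among these genes *Ptgfrn* and *Hip1* were called higher in KO vehicle than in WT vehicle.

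Of the 10 tested ISGs listed as antiviral effectors 5 were called higher, namely *Ddx60*, *Ifih1*, *Ddx58*, *Eif2ak2* and *Rtp4*, and the median of the 10 was 1.48. *Ddx60* (chromosome 8, 61928087 to 62038244, plus strand), a helicase that assists the RNA sensors, had 4.80, 6.53, 7.02 and 3.20 CPM in WT vehicle and 309, 155, 136 and 129 CPM in WT DMXAA. All 4 treated libraries were far above all untreated ones, and the first was the highest. The log2 fold change was 5.05 (SE 0.33, adjusted p = 3.86e-09). In counts this was 565 UMIs against 19, a ratio of 34.3 (95% interval 21.8 to 57.4, counting error only). *Ifih1* (chromosome 2, 62595798 to 62646255, minus strand) encodes MDA5, a sensor of long double-stranded RNA. It had 1.20, 1.31, 0 and 1.07 CPM with vehicle and 27.5, 17.9, 14.4 and 15 CPM with DMXAA. It rose by 4.24 on the log2 scale (SE 0.62, adjusted p = 0.000842), from 3 UMIs to 58 (ratio 22.3, 7.27 to 111). *Ddx58*, which encodes the sensor RIG-I, started higher, at 29.99, 19.6, 29.1 and 16 CPM, and reached 123, 57.2, 44.9 and 88.7 CPM (log2 fold change 1.73, SE 0.28, adjusted p = 0.00238). *Trim25*, a ubiquitin ligase that acts on RIG-I, had 4.80 to 11.8 CPM with vehicle and 19.2 to 50.1 CPM with DMXAA (log2 fold change 1.67, adjusted p = 0.0389), and it was called in 12 of the 25 alternative settings in which it was fitted.

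*Irf9* and *Stat2*, which encode subunits of ISGF3, rose. *Irf9* (chromosome 14, 55603571 to 55610030, plus strand), which shares its strand with the overlapping gene *Rnf31*, had 12, 7.83, 3.01 and 7.46 CPM and then 95.1, 54.8, 30.5 and 42.5 CPM (log2 fold change 2.90, SE 0.36, adjusted p = 0.000127). *Stat2* had 16.8, 26.1, 25.1 and 11.7 CPM with vehicle and 75.1, 57.2, 25.7 and 49.99 CPM with DMXAA. Here WT DMXAA 3 overlapped the vehicle libraries (log2 fold change 1.4, SE 0.29, adjusted p = 0.0389), and *Stat2* was called in 10 of 26 alternative settings. *Nmi*, a STAT-interacting factor, was not called (log2 fold change 1.53, adjusted p = 0.264).

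*Oasl2* and *Ifit1* had 4 UMIs or fewer in each WT vehicle library. *Oasl2* (chromosome 5, 114896936 to 114912234, plus strand), an oligoadenylate synthetase-like protein, had 4.80, 0, 0 and 0 CPM in WT vehicle and 133, 36.9, 14.4 and 33.7 CPM in WT DMXAA. That is 4 UMIs against 173 (ratio 49.9, 19.2 to 185), with a log2 fold change of 5.43 (SE 0.82, adjusted p = 0.00238). The ratio was 26.2 without WT DMXAA 1, and DESeq2 did not call the gene. All 4 vehicle UMIs were in WT vehicle 1, and the log2 fold change ran from 3.73 to 8.51 over the alternative settings. *Ifit1* (chromosome 19, 34640871 to 34650009, plus strand), which binds viral RNA caps, had 2.40, 0, 1 and 2.13 CPM and then 95.1, 39.3, 16 and 43.7 CPM (log2 fold change 4.98, SE 0.59, adjusted p = 6.88e-05). The groups lay apart in both genes, with WT DMXAA 1 highest and WT DMXAA 3 lowest. The kinase PKR (*Eif2ak2*), which halts translation on double-stranded RNA, went from 21.6, 15.7, 13.0 and 6.39 CPM to 78.8, 45.3, 28.9 and 53.7 CPM (log2 fold change 1.89, SE 0.36, adjusted p = 0.0174), and was called in 17 of 26 alternative settings. *Rtp4*, an inhibitor of flaviviruses that overlaps *Masp1* on the other strand, went from 7.83 to 9.60 CPM to 16 to 50.1 CPM (log2 fold change 1.99, SE 0.30, adjusted p = 0.00132).

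ADP-ribosyltransferases and ubiquitin ligases of the ISG list rose in 4 of 5 tested members. *Rnf213* (chromosome 11, 119393100 to 119487418, plus strand), a giant ubiquitin ligase with the gene *A930037H05Rik* on the other strand, had 16.8, 28.7, 23.1 and 23.4 CPM with vehicle and 178, 97.7, 77 and 111 CPM with DMXAA. Its groups did not overlap (log2 fold change 2.34, SE 0.25, adjusted p = 1.35e-05). *Parp9*, *Parp12* and *Parp11* rose by 2.29, 1.90 and 1.17 on the log2 scale (adjusted p 0.0381, 0.0310 and 0.0302), each without overlap. *Parp9* was called in 14 of 25 alternative settings, *Parp12* in 16 and *Parp11* in 18 of 26. The gene *Parp9* overlaps that of its partner *Dtx3l*, which lies on the other strand. *Rnf114* was at -0.03. *Herc6*, the ligase that attaches ISG15 in mice, rose by 1.51 (SE 0.28, adjusted p = 0.0171) and was called in 18 of 26 settings, while *Usp25* was at 0.03.

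Class I antigen presentation was not called in any of 5 tested genes, although 4 had positive values. *B2m*, the light chain of class I molecules, had 6.00, 3.92, 5.01 and 5.33 CPM in WT vehicle and 37.5, 23.8, 8.02 and 13.7 CPM in WT DMXAA, without overlap (log2 fold change 2.03, adjusted p = 0.279). *H2-D1* and *H2-K1*, heavy chains, had log2 fold changes of 1.41 (adjusted p = 0.337) and 1.12 (adjusted p = 0.824), with WT DMXAA 3 at 8.02 CPM in both, below every WT vehicle library. Without this library both were called, at 1.73 and 1.4, and so was *B2m* at 2.26. The interferon-induced mitochondrial protein *Ifi27* had 40.8, 53.5, 35.1 and 36.2 CPM and then 130.1, 118, 22.5 and 106 CPM (log2 fold change 1.22, adjusted p = 0.279), and was called at 1.52 without WT DMXAA 3. In that fit 23 of 35 tested ISGs were called, with a median of 1.73. These values too are partly set by the filter, since *Usp18*, at 0 UMIs in the other groups, was among the 35. *Samhd1* (-0.27), *Tap2* (-0.18), *Apobec3* (0.20), *Pml* (0.53), *Ifit2* (0.64) and *Znfx1* (0.74) were among the ISGs not called with all libraries.

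The other 6 called genes were not on the ISG list. *C4b* (chromosome 17, 34728380 to 34743882, minus strand) encodes complement C4. It had 3.60, 3.92, 2.01 and 2.13 CPM in WT vehicle and 40.0, 48.8, 19.2 and 23.7 CPM in WT DMXAA (log2 fold change 3.49, SE 0.49, adjusted p = 0.000585). *Hif3a* (chromosome 7, 17031507 to 17062427, minus strand), a hypoxia-inducible factor subunit, had 13.2, 19.6, 10.0 and 10.7 CPM and then 25, 56.0, 30.5 and 82.5 CPM (log2 fold change 1.89, SE 0.39, adjusted p = 0.0389), and it was called in 12 of 26 alternative settings. Neither overlapped between groups. The non-coding gene *Gm20559* went from 2.01 to 3.60 CPM to 20.9 to 66.3 CPM (log2 fold change 3.70, adjusted p = 0.000408). *Gm44148*, a non-coding gene antisense to *Usp18*, went from 6.53 to 22.4 CPM to 20.9 to 118 CPM, with overlap (log2 fold change 2.14, adjusted p = 0.0302, called in 17 of 25 settings). *Ptgfrn*, a membrane protein that binds tetraspanins, had 16 to 28.8 CPM with vehicle and 36.3 to 79.8 CPM with DMXAA (log2 fold change 1.47, adjusted p = 0.0171, called in 20 of 26 settings). *Hip1*, an endocytic adaptor, had 348 to 446 CPM and then 485 to 662 CPM (log2 fold change 0.56, SE 0.12, adjusted p = 0.0389), and it was called in 8 of 26 alternative settings. In both of these the KO vehicle libraries already lay above WT vehicle, at 33.7 to 75.1 CPM for *Ptgfrn* and 595 to 656 CPM for *Hip1*.

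*Ddx60* was detected in 45.6% ± 12.6 (SD, n = 4) of OPC in WT DMXAA, 339 of 730 nuclei, with a range of 36.7 to 64.2%. The share was 1.89% ± 0.807 in WT vehicle, 2.71% ± 0.671 in KO vehicle and 1.66% ± 0.634 in KO DMXAA, at group means of 3987 to 4679 UMIs per nucleus. No class of the treated WT libraries lacked *Ddx60*, so the share that free RNA gives there was not measured. In the same libraries mature oligodendrocytes had the lowest share of the 4 classes, 2.87% ± 1.58 at 2336 UMIs per nucleus. Astrocytes had 24.8% at 3499 UMIs and microglia 31.8% at 2067 UMIs. Depth differed between classes, so these shares do not rank their responses. After each nucleus was thinned to 2000 UMIs, leaving out 20 to 29 shallower WT and 12 to 15 KO nuclei per group, the shares were 28.2% in WT DMXAA and 0.908% in WT vehicle. *Rnf213* was found in 30.8% against 8.65% (18.5% and 4.36% thinned). The microglial gene *P2ry12* was found in 18.2% ± 9.31 of OPC in WT DMXAA and 17.0% ± 3.23 in WT vehicle, and *Cx3cr1* in 5.05% and 3.28%, so RNA of microglial genes was present in OPC barcodes.

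In WT DMXAA the 12 microglial markers stood in OPC at 1.52% of their summed level in microglia, with single markers between 0.167 and 6.88%. The 22 called genes stood at 20.7 to 1219% of their microglial level, with a median of 53.0%. The part of microglial RNA in the result was not tested. In 1449 members without any UMI of 8 further markers (*Mag*, *Opalin*, *Cx3cr1*, *P2ry12*, *Gad1*, *Slc17a7*, *Aqp4* and *Flt1*), which could still hold other markers of those cells, 12 of the 22 genes passed the filter, all with positive log2 fold changes of 0.53 to 4.79. *Ddx60* (4.79) and *Rnf213* (2.06) were among the 3 genes called there. The 1449 are part of the 2912 nuclei in which the 22 genes were called, so the positive signs are description only.

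Most ISGs had too few UMIs for the test, which needed a minimum count in 4 libraries. No gene of the PYHIN, guanylate-binding, immunity-related GTPase or chemokine families passed. The 108 untested ISGs summed to 404 UMIs (114 CPM) in WT vehicle and 1360 UMIs (444 CPM) in WT DMXAA, against 227 (73.9 CPM) and 257 (73.1 CPM) in the KO groups. In WT, 77 were at a higher summed level with DMXAA, 11 were lower and 20 were at 0 in both groups. In KO, 30 were higher, 34 lower and 44 at 0 in both. The genes named next were chosen after their values were seen. *Usp18*, which removes ISG15 and restrains the receptor, had 109, 46, 2 and 38 UMIs in WT DMXAA and 0 in all 12 other libraries, at least 75-fold higher than a floor of 3 counts over the WT vehicle group. *Ifit3* had 58, 16, 2 and 13 UMIs against 4 in WT vehicle (ratio 25.7, 9.69 to 96.3), and *Nlrc5*, the class I transactivator, had 28, 8, 2 and 10 against 1 (55.4, 9.48 to 2234). The GTPases *Irgm1* and *Gbp7* had 20, 14, 2 and 15 UMIs against 11 (5.35, 2.75 to 11.4) and 26, 5, 5 and 5 against 3 (15.8, 5.03 to 79.6). The antiviral radical enzyme *Rsad2* had 22, 5, 3 and 2 UMIs against 3 (12.3, 3.85 to 62.8). WT DMXAA 1 held the most UMIs of each of these genes. Without it, a setting chosen after the values were seen, *Usp18* was at least 44.8-fold higher and the ratios were 12.1 for *Ifit3*, 31.2 for *Nlrc5*, 7.81 for *Gbp7* and 5.21 for *Rsad2*. The intervals cover counting error only. WT DMXAA 3 was the lowest of the treated libraries for *Usp18*, *Ifit3*, *Nlrc5* and *Irgm1*.

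In KO OPC no gene was called with DMXAA (0 of 9338, 0%). At an unadjusted p under 0.05 edgeR gave 571 genes, and DESeq2 and limma also called 0. The 31 tested ISGs had a median log2 fold change of -0.03. They include *Oasl2*, *Ifit1*, *Ifih1* and *Ddx60*, which passed the filter through WT DMXAA. *Ddx60* had 20 UMIs in KO vehicle and 14 in KO DMXAA. The others had 0 to 2 UMIs in each KO group, too few to measure a change. The summed level of the ISG list was 681, 662, 660 and 542 CPM in WT vehicle and 3195, 1839, 1121 and 1791 CPM in WT DMXAA, but 502 to 580 CPM in KO vehicle and 484 to 568 CPM in KO DMXAA. The KO ranges overlapped each other, while the lowest treated WT library lay above every untreated one. *Ddx60* had 5.62, 7.86, 5.11 and 8.05 CPM in KO vehicle and 5.56, 2.78, 5.39 and 2.07 CPM in KO DMXAA. Among the 5 smallest p in KO was that of the channel *Trpm3*, with 1067, 783, 771 and 1873 CPM against 487, 516, 421 and 586 CPM (-1.16, adjusted p = 0.790). *9130019P16Rik* (2.28), *March3* (-1.18) and *4930556J24Rik* (1.74) were also among them. Choroid plexus markers, which here are mostly *Trpm3*, ran up to 2920 CPM in KO vehicle (without TMM scaling), and their part in the result was not tested. Without WT DMXAA 3, whose spread enters the shared fit, 27 genes were called in KO, 15 higher and 12 lower, with 0 ISGs among them.

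The DMXAA effect differed between genotypes in 5 of 9338 genes (0.0535%), all ISGs and all larger in WT. The difference in log2 fold change was 5.74 (SE 0.74, adjusted p = 0.00104) for *Ddx60*, 3.94 (SE 0.63, adjusted p = 0.00946) for *Irf9* and 2.47 (SE 0.40, adjusted p = 0.00946) for *Rnf213*. It was 2.69 (SE 0.51, adjusted p = 0.0495) for *Rtp4*, which was called in 5 of the 24 alternative settings in which it was fitted, against 25 of 25 for *Ddx60*, 23 of 24 for *Irf9* and 24 of 25 for *Rnf213*. The median difference of the 31 tested ISGs was 1.28, a value partly set by the filter. *Oasl2*, *Ifit1*, *Ifih1* and *Ddx60* entered through WT DMXAA. *Ddx60* had 20 UMIs in KO vehicle and 14 in KO DMXAA, and the others had 0 to 2 in each KO group. DESeq2 called 5 genes and limma 4. *Oasl2* and *Ifit1* rose in WT but were not called for the interaction, at 0 or 1 UMI in each KO library. The interaction count was 8 without WT DMXAA 3 and 3 without WT vehicle 3 or 4, any 1 KO vehicle library, or KO DMXAA 3 or 4.

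**Figure D3:**
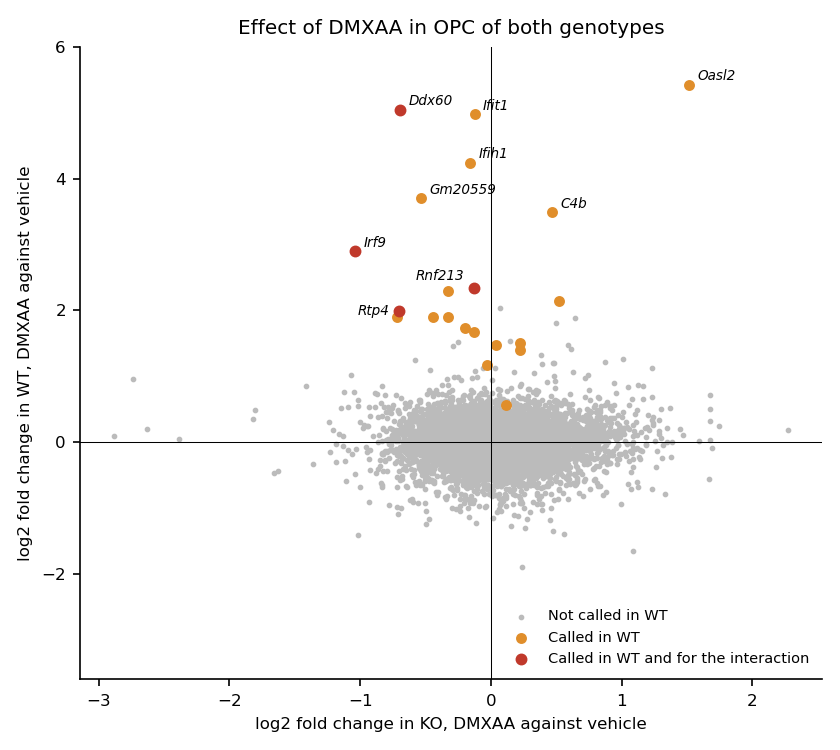
Log2 fold change with DMXAA in WT (y axis) against KO (x axis) for the genes tested in OPC, with genes called in WT in orange and those also called for the interaction in red. The called genes lie between 0.56 and 5.43 in WT, and *Oasl2*, at 1.52 in KO, rests there on 1 UMI.

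Of 29 listed genes of the STING and interferon pathway, a list that leaves out the ISGF3 subunits described above, 17 were tested, and 0 were called by edgeR in WT or in KO (0 also at an unadjusted p under 0.05). The receptor chain *Ifnar2* had a log2 fold change of 0.31 in WT (adjusted p = 0.990), the kinases *Jak1* of 0.24 and *Tyk2* of 0.11, and *Tbk1*, the kinase below STING, of -0.33 (adjusted p = 0.990). The DNA sensor *Cgas* and STING itself (*Tmem173*) had 3 and 4 UMIs in WT vehicle and 3 and 0 in WT DMXAA, too few to compare at this depth.

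Precursor identity genes were not called with DMXAA. Of 45 tested that the rule did not use, 0 were called in WT or KO by edgeR, and 8 and 5 reached an unadjusted p under 0.05. Both counts are above the share over all genes, 509 and 571 of 9338, a difference that was not tested. The 7 genes of the rule, whose levels it partly sets, are described only. *Pdgfra* among them had 837, 842, 927 and 911 CPM in WT vehicle and 1121, 942, 541 and 942 CPM in WT DMXAA, WT DMXAA 3 being the lowest of all. *Sox10* was at -0.10, *Olig2* at 0.12 and *Cspg4* at 0.23. The smallest p was that of *Xylt1*, which starts the sugar chains of proteoglycans, with 2072 to 2384 CPM and then 2394 to 3995 CPM (0.47, adjusted p = 0.353), WT DMXAA 3 being the highest. Of 23 tested differentiation genes 0 were called. *Bcas1*, a mark of early oligodendrocytes, was at 0.36 in WT (adjusted p = 0.865), and *Gpr17* at 0.70 in KO (adjusted p = 0.790), with 53.5 to 88.4 CPM in KO vehicle and 90.5 to 150.02 CPM in KO DMXAA. Of 31 growth factor and patterning genes and of 43 neurotransmitter receptors and channels 0 were called in either genotype, with medians of 0.18 and 0.13 in WT. Without WT DMXAA 3 the median of the receptors and channels was -0.03, with 14 of 43 positive in place of 34, and *Fgfr2* was called among the growth factor genes (0.70, adjusted p = 0.0257). Of 8 glucocorticoid targets 0 were called by edgeR. The chaperone *Fkbp5* among them had 72.0, 67.9, 55.2 and 69.2 CPM in WT vehicle and 58.8, 204, 133 and 180.0 CPM in WT DMXAA (1.13, adjusted p = 0.141), and it was called by DESeq2, without the filter on low counts, without WT DMXAA 1 and without WT DMXAA 3 (1.16). *Zbtb16*, another of the glucocorticoid targets, was called without the filter on low counts and without WT DMXAA 1. Of 15 clock genes 0 were called, with *Cry2* at -0.80 (adjusted p = 0.513) and *Per2* at -0.67 (adjusted p = 0.676). *Per2* was called lower without WT DMXAA 3 (-0.91, adjusted p = 0.0377). Of 9 cholesterol synthesis genes 0 were called, with *Sqle* at -0.90 (adjusted p = 0.662). Class II antigen presentation genes were too low to test, with *Cd74* at 10 UMIs in WT vehicle and 1 in WT DMXAA. Of 22 tested markers of other cell types and of 6 nuclear-retained RNAs 0 were called in WT or KO, *Neat1* being at 0.99 in WT (adjusted p = 0.570). Without WT DMXAA 3 the neuronal marker *Hs3st4* was called lower in KO (-1.82, adjusted p = 0.0493).

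Transcripts of dividing cells summed to lower values in WT OPC after DMXAA, but no gene of the list was called in the main fit. Of 36 cell cycle genes 7 were tested and 0 were called, with *Top2a*, *Tyms* and *Atad2* at -1.66, -0.998 and -0.94 (adjusted p 0.836, 0.806 and 0.872). The median of the 7 was -0.28 in WT, with 1 positive, and 0.23 in KO, with 7 positive. In WT 3 of the 7 were lower at an unadjusted p under 0.05, against 219 of all 9338 genes tested. *Top2a* was called for the interaction without the filter on low counts. The replication gene *Pole*, which was not on the lists, was called lower in WT without WT DMXAA 3 (-2.26, adjusted p = 0.0285). *Pole* and *Kif23* were also called in WT without the filter on low counts. The list summed to 355, 346, 357 and 305 CPM in WT vehicle and 164, 176, 189 and 301 CPM in WT DMXAA. The WT groups did not overlap, but WT DMXAA 4 lay just under the lowest vehicle library. KO vehicle libraries had 225 to 330.1 CPM and KO DMXAA libraries 216 to 386 CPM. *Mki67*, a protein of cycling cells, had 5, 9, 9 and 8 UMIs in WT vehicle and 0, 2, 1 and 1 in WT DMXAA, against 3 to 4 in KO vehicle and 4 to 9 in KO DMXAA. The sums carry no test.

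The genotype groups had the broadest difference. Between KO vehicle and WT vehicle 2485 of 9338 genes (26.6%) were called, 1247 higher in KO (13.4%) and 1238 lower (13.3%). Without scaling factors the split was 782 higher and 1943 lower, with the median of all genes at -0.22 in place of -0.04. The count was 1649 without KO vehicle 2 and 3331 without WT DMXAA 3. Genes higher in KO were long, with a median span of 159 kb, against 13.8 kb for those lower and 36.4 kb for those not called. The same comparison called 3919 of 12422 genes in mature oligodendrocytes, 2724 of 12159 in astrocytes and 2324 of 9868 in microglia. A broad difference was thus not particular to OPC, and whether the genes named below differed by class was not tested. KO mice were also older. Neither age nor any other difference between the WT and KO mice as cohorts can be told apart from the deletion.

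Of 10 tested transcription factors of the identity list 4 were lower and 1 was higher, with a median of -0.03. *Sox10* had 388, 426, 335 and 313 CPM in WT vehicle and 112, 132, 171 and 196 CPM in KO vehicle, without overlap (log2 fold change -1.25, SE 0.24, adjusted p = 0.00131). *Olig2* (-0.92), *Olig1* (-0.81) and *Sox8* (-0.66) were also lower and *Sox5* was higher (0.54). The Notch target *Hes5* was lower, at -2.01 (50.4 to 77.8 CPM in WT and 9.20 to 22.8 CPM in KO). Of the 45 identity genes that the rule did not use 15 were higher and 6 lower. Of 13 tested proteoglycan and matrix genes 5 were higher and 1, the proteoglycan *Cspg5*, was lower (-0.58). The higher ones were *Smoc1* at 0.58, *Chst11* at 1.12, *Xylt1* at 0.93, the matrix protein *Tnr* at 0.66 (3638 to 4616 CPM in WT and 6207 to 6836 CPM in KO) and *Cspg4* at 0.39. Of 43 neurotransmitter receptors and channels 22 were higher and 2 lower. Of 8 tested markers of excitatory neurons 2 were called higher (*Rbfox3* at 1.58 and *Hs3st4* at 2.02), with 6 of 8 positive and a median of 0.47. The sum of all 9, without TMM scaling, was 468 to 754 CPM in WT vehicle and 566 to 1125 CPM in KO vehicle. On that scale *Slc17a7* averaged 43.2 CPM in WT vehicle and 27.5 CPM in KO vehicle, and *Nrgn* 23.9 and 13.3 CPM. *Neurod6*, which was not tested, averaged 12.4 and 2.31 CPM, so the markers did not all move the same way. The 7 choroid plexus markers, also without TMM scaling, summed to 648 to 1016 CPM in WT vehicle and 1050 to 2920 CPM in KO vehicle, without overlap. *Trpm3* among them averaged 380 and 1045 CPM. *Ttr* (68.2 and 62.0 CPM) and *Enpp2* (297 and 287 CPM) were not higher in KO vehicle. *Htr2c*, *Otx2os1*, *Kl* and *Folr1* had higher means there, and among the vehicle libraries each was highest in KO vehicle 4. The part of either set in the result was not tested. The glutamate receptor *Gria1* had 185, 198, 269 and 233 CPM in WT vehicle and 671, 884, 840.0 and 388 CPM in KO vehicle (1.65, adjusted p = 0.00731), *Grin2a* was at 1.64 and *Gabbr2*, a GABA-B subunit, at 1.08, while *Gria2* (-0.49) and *Grik1* (-0.64) were lower. Of 31 growth factor and patterning genes 5 were higher, with *Igf1r* at 0.93, and 4 lower, with *Fgfr2* at -0.84. Of 23 differentiation genes 7 were higher and 2 lower, of 31 ISGs 0 were higher and 2 lower, and of 17 pathway genes *Traf3* was higher (0.64) and *Irf3* lower (-1.32). Of all genes tested 13.4% were higher and 13.3% lower. The growth factor and pathway counts and the 1 higher transcription factor lay near or under these shares and show nothing about those lists. The same holds for the lower counts of every list named here but the transcription factors. Genes higher in KO had a median span of 159 kb, against 36.4 kb for those not called, so the share over all genes is not matched to any list for length. The nuclear RNA *Malat1* fell by 1.99 on the log2 scale, from 40182 to 63864 CPM in WT vehicle to 9995 to 16883 CPM in KO vehicle.

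The largest rises without overlap between vehicle groups were in *Prdm16* (2.89), *Taco1* (2.85), *Glis3* (2.33), *Slit3* (2.17), *Galnt18* (2.03), *Nhsl2* (2.02), *Htr4* (1.99), *Sorcs2* (1.92), *Pakap* (1.86), *Kcnh1* (1.85), *Lrrc3b* (1.74), *Bcl11b* (1.73), *Galnt9* (1.66), *Gria1* (1.65) and *Iqsec1* (1.64). *Taco1*, a mitochondrial translation factor, had 10.7 to 16 CPM in WT vehicle and 51.0 to 199.7 CPM in KO vehicle. The largest falls were in *Ifi27* (-3.04), *Gm10353* (-2.71), *Ssr4* (-2.69), *Prdx5* (-2.58), *Gm44686* (-2.52), *4930590L20Rik* (-2.52), *Selenom* (-2.51), *Far1os* (-2.47), *Gm15584* (-2.46), *Gm15594* (-2.42), *Lrrc19* (-2.42), *Snhg8* (-2.40), *Nup43* (-2.40), *Rpp21* (-2.39) and *Bax* (-2.34). *Ifi27* is the interferon-induced gene among them, with 35.1 to 53.5 CPM in WT vehicle and 1.4, 1.57, 6.14 and 9.39 CPM in KO vehicle (SE 0.52, adjusted p = 0.000789).

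The same genes set WT DMXAA 3 apart. Of the 1247 genes higher in KO vehicle, 94.8% were higher in WT DMXAA 3 than in the mean of the other 3 WT DMXAA libraries, and 1013 lay above all 7 other WT libraries. Of the 1238 lower genes 93.4% were lower there, and 983 lay below all 7. Of all 9338 genes tested, 49.5% were higher in WT DMXAA 3, 2531 lay above and 2752 below all 7. The 7 include the WT vehicle libraries, whose values helped to choose the genes, so the counts over all 7 are partly set by that choice. The comparison with the other 3 WT DMXAA libraries does not use WT vehicle values. *Sox10* had 435, 409, 141 and 366 CPM and *Gria1* 106, 199, 836 and 184 CPM in WT DMXAA 1 to 4. Its ISGs, in contrast to those of KO libraries, were raised, with a summed level of 1121 CPM. The position of this library was not explained by any label.

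**Figure D4:**
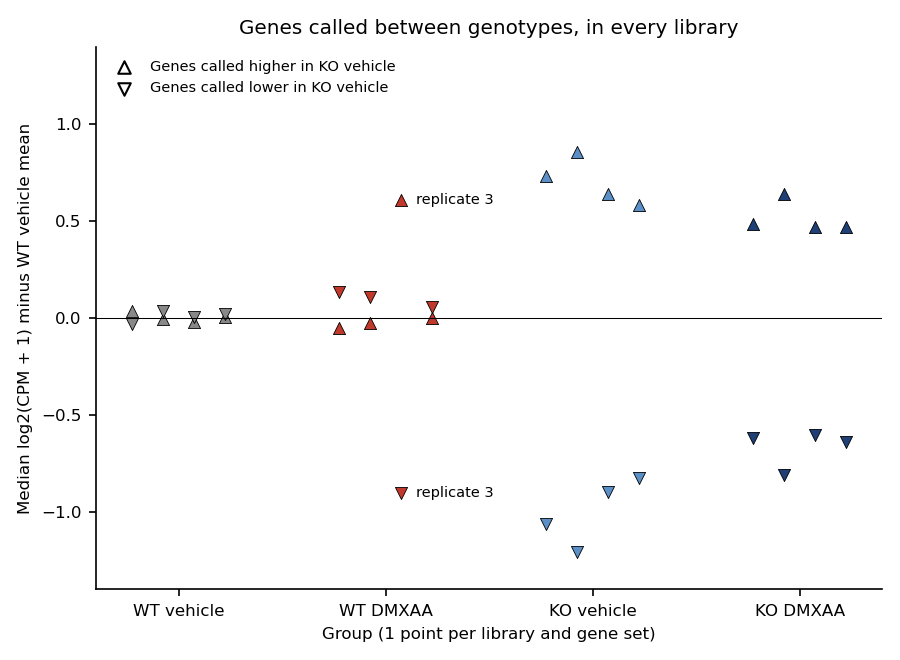
Median log2(CPM + 1) relative to the WT vehicle mean, in each library, of the genes called higher (upward triangles) and lower (downward triangles) in KO vehicle OPC. The genes were called between the 8 vehicle libraries, with the spread estimated over all 16 libraries. WT DMXAA 3 lies at 0.61 and -0.91, and the other 3 WT DMXAA libraries between -0.05 and 0.13.

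Other glia of the same WT animals were compared with OPC by a test of the difference in DMXAA effect, with the library as a block. Against mature oligodendrocytes (14579 nuclei) 0 of 12109 genes differed (0%) by edgeR, with 633 at an unadjusted p under 0.05. Against astrocytes (6104 nuclei) 3 of 10652 did (0.0282%). *Hif3a* rose in OPC but had a log2 fold change of -0.46 in astrocytes, where its mean was 166 CPM with vehicle and 117 CPM with DMXAA (difference 2.37, SE 0.24, adjusted p = 7.36e-05). *C4b* rose by 1.36 in astrocytes, from 67.5 to 172 CPM, and by 2.12 more in OPC, from 2.91 to 33.0 CPM (SE 0.35, adjusted p = 0.0394). *Ifi27* rose more in astrocytes, by 2.68, with a difference of -1.46 (SE 0.21, adjusted p = 0.00967). The astrocyte count was 1 without WT vehicle 1, 2 or 4 or WT DMXAA 4.

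Against microglia (4425 nuclei) 1 of 10757 genes differed (0.0093%). *Ddx60* averaged 5.39 CPM in OPC and 60.2 CPM in microglia with vehicle, and 182 and 199.996 CPM with DMXAA, so that OPC began lower and reached a similar level (difference 3.38, SE 0.28, adjusted p = 3.35e-05). A large rise of *Ddx60* was not particular to OPC. It rose by 4.88 (SE 0.64) in mature oligodendrocytes and by 4.07 (SE 0.50) in astrocytes, and no difference from OPC was called for it in either class. Within each class 121 of 9868 genes (1.23%) were called in WT microglia, 20 of 12159 (0.164%) in astrocytes and 4 of 12422 (0.0322%) in mature oligodendrocytes. The numbers of nuclei and the depth differed between classes, so these counts do not rank them. In KO mice 0 genes were called by edgeR in each of the 3 classes (383 to 817 at an unadjusted p under 0.05). Without WT DMXAA 3 the class difference was called for 5 genes against mature oligodendrocytes and for 4 against microglia, and without WT DMXAA 4 for 5 against microglia.

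**Figure D5:**
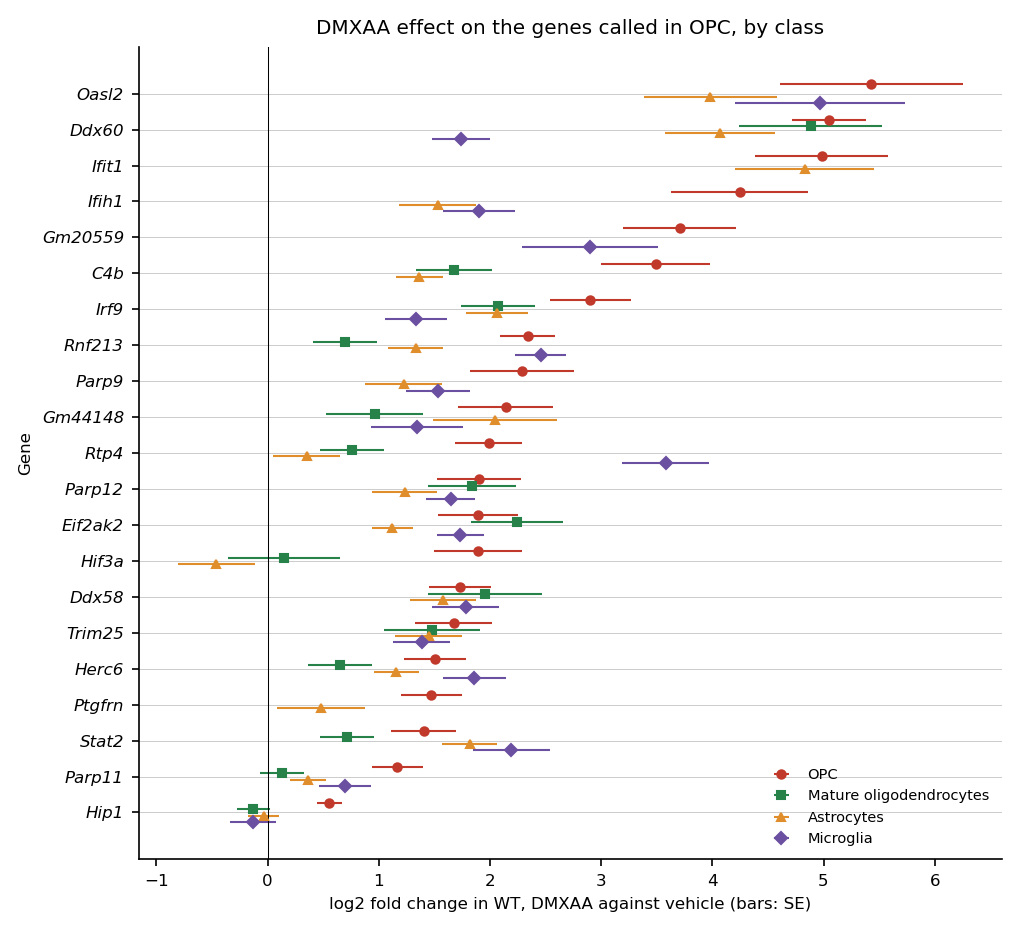
Log2 fold change with DMXAA in WT, with its SE as a bar, of the genes called in OPC that are reported here, in OPC, mature oligodendrocytes, astrocytes and microglia; a point is missing where a gene did not pass the filter in that class. *Ddx60* is at 5.05 in OPC, 4.88 in mature oligodendrocytes, 4.07 in astrocytes and 1.74 in microglia, and *Hif3a* at 1.89 in OPC and -0.46 in astrocytes.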

How the data were processed

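Nuclei were profiled with the 10x 3′ v3.1 kit. The authors deposited UMI counts per gene and called barcode, not normalized, mapped to mm10 with reads on pre-mRNA counted; the labels name Cell Ranger 3.1.0 and Seurat 3.0, and the file header Cell Ranger 6.1.2. Here the deposited counts of members were summed per library. No doublet caller was run; the excluded genes and the limit of 4000 genes stood in for it. The study tested single nuclei, which are not replicates, so library sums of all 16 libraries (4 groups) were fitted with the quasi-likelihood test of edgeR 4.0.16 in R 4.3.3, with TMM scaling, the filterByExpr filter and Benjamini-Hochberg adjustment over all genes tested, after tests on simulated data. DESeq2 1.42.0 and limma 3.58.1 were alternatives. The sequencing depth of OPC, 685937 to 1156187 UMIs per library, limited testing to 9338 of 32285 genes. Count ratios have exact 95% intervals. Mature oligodendrocytes, astrocytes and microglia were chosen by like marker rules, so class names are rebuilt. Named genes were every called gene where 30 or fewer were called, otherwise the 15 largest rises and falls without overlap between groups, where none was called the 5 smallest p, and members of the gene lists. The members and lists were chosen with earlier results of these data known. Labels name 1 mouse per library; replicate numbers only name libraries. Gene positions are from GENCODE M21 on mm10. Some genes that enter the counts are not reported here.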

Additional observations from a re-analysis of the deposited data

Results flagged for a closer look

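In 138 groups of 4 libraries checked, 11 had a library far from the other 3; chance alone gives this in about 1 of 20 groups. In WT vehicle these were *Oasl2* in replicate 1 (4.80 CPM, others 0), *Slit3* in replicate 3 (124 CPM, others 71.8 to 77.8), *Sorcs2* in replicate 2 (32.6 CPM, others 18 to 20.4), *Pakap* in replicate 2 (15.7 CPM, others 26.6 to 27.6), and in replicate 4 the summed level of the ISG list (542 CPM, others 660 to 681) and of the G2/M list (164 CPM, others 176 to 178). In WT DMXAA they were *Ddx60* (309 CPM, others 129 to 155) and *Trim25* (50.1 CPM, others 19.2 to 23.7) in replicate 1, and the share of OPC in replicate 3 (1.46%, others 2.54 to 2.56%). In KO libraries they were *Gm10353* in vehicle replicate 2 (0 CPM, others 2.68 to 3.07) and the summed cell cycle list in DMXAA replicate 3 (216 CPM, others 375 to 386).

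The DMXAA effect differed between genotypes, by the interaction test, for *Ddx60* (5.74), *Irf9* (3.94), *Rtp4* (2.69, called in 5 of 24 alternative settings) and *Rnf213* (2.47, all WT minus KO on the log2 scale). It differed between classes for *Hif3a* (2.37), *C4b* (2.12) and *Ifi27* (-1.46) against astrocytes and for *Ddx60* (3.38) against microglia, as OPC minus the other class.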

How the results depend on the processing

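No paired analysis was possible because the labels carry no replicate numbers that tie libraries across groups. Genes called in WT numbered 22; the count was 13 with limma, 12 without scaling factors (chosen after seeing the data), 59 without the filter on low counts (53 higher, 6 lower), 3 in members without UMIs of 8 markers of other cell types (fewer nuclei and genes), 10 with only the WT groups fitted, and 12 to 70 leaving out 1 library. Of the 22, 9 were called under every setting in which they could be fitted (among them *Ddx60*, *Ifit1*, *Ifih1*, *Gm20559*, *C4b*, *Irf9*, *Rnf213* and *Rtp4*), and 0 reversed. KO calls (0) were 121 without the filter (54 higher, 67 lower), 12 with only the KO groups (7 higher, 5 lower) and 0 to 27 leaving out 1 library. Interaction calls (5) were 62 without the filter (52 larger in WT, 10 smaller), 1 in members without the 8 markers and 3 to 8 leaving out 1 library. Genotype calls (2485) were 1288 (666 higher, 622 lower) in members without the 8 markers and 1649 to 3331 leaving out 1 library. Class differences ranged over 0 to 5 (mature oligodendrocytes), 1 to 4 (astrocytes) and 1 to 5 (microglia). The share changed sign, by amounts no test called, to 0.00341 percentage points in WT with nuclei thinned to 1000 UMIs and to 0.0676 between vehicle groups with 4 of 6 markers required; UMIs per nucleus in WT went to -54.0. Leaving out 1 library, share differences spanned -0.272 to 0.0955 (WT), 0.210 to 0.479 (KO) and -0.116 to 0.117 (genotype), and UMIs -108 to 126, -339 to 64.5 and 577 to 843. The causes were not tested.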
